A study of Homo sapiens with 2 samples.

Results

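Members of the interleukin-1 (IL-1) family and its receptors were followed in Tu212 cells, an epithelial-derived line that serves as a model of squamous carcinoma of the head and neck. The 10 genes were picked by gene symbol, out of 56690 symbols in the deposited table, as 5 ligands (IL1A, IL1B, IL18, IL33 and IL36G), 2 receptor antagonists (IL1RN and IL36RN) and 3 receptor chains (IL1R1, IL1RAP and IL1R2). PRMT5 overexpression meant Tu212 cells given the pEZ-PRMT5 plasmid for 48 h, and the vector control group was Tu212 cells given pEZ-vector for the same time. PRMT5 is an arginine methyltransferase of histones and splicing proteins. Polyadenylated RNA was sequenced from 1 library per group, so no difference below has a replicate check, no test was possible, and each value describes 2 libraries rather than a condition.

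IL-1 family cytokines are alarm signals that epithelia make and, in part, store. IL1A and IL1B bind the receptor IL1R1, which then recruits IL1RAP as its signalling partner and passes the signal through MYD88 and IRAK kinases to NF-kB. The product of IL1RN occupies IL1R1 without recruiting IL1RAP, the product of IL36RN does the same at the IL-36 receptor, and IL1R2 is a decoy that binds ligand and does not signal. In keratinocytes and squamous tumours IL1A is the ligand typically present at rest, together with the antagonists.

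The PRMT5 overexpression library held 19908258 reads assigned to genes, against 14119997 in the vector control library. PRMT5 itself was at 293 CPM (a gene's reads scaled to one common library size) in the PRMT5 overexpression library and 145 CPM in the vector control library, from 5770 and 2068 reads, which is 2.02-fold higher, and reads of the plasmid and of the cell's own gene cannot be told apart in these counts. All 10 squamous and epithelial markers were present, with KRT5 at 5077 CPM in PRMT5 overexpression and 4575 CPM in the vector control. Of 10 leukocyte markers, 2 reached 10 reads in at least 1 library, CD68 and ITGAM. ITGAM did so only in the vector control, with 3 reads in PRMT5 overexpression and 12 in the vector control. PTPRC, which defines leukocytes, had 4 reads in PRMT5 overexpression and 0 in the vector control. In the same order, LYZ had 3 and 0 and CD3E had 0 and 6. The summed level of the leukocyte list was 17.5 CPM in PRMT5 overexpression and 22.1 CPM in the vector control, nearly all of it from CD68, and FCGR3A and MS4A1 were at 0 in both. CD68 shares exon bases with AC016876.1 and AC016876.2, and its log2 ratio of -0.30 turned to 0.32 once they were summed, so the direction of that sum is uncertain. The 8 fibroblast markers summed to 81.0 CPM in PRMT5 overexpression and 98.3 CPM in the vector control, where COL1A1 made up most of both sums, and FAP was at 0 in both. The other fibroblast genes had few reads. COL1A2 had 7 in PRMT5 overexpression and 26 in the vector control, and DCN had 0 and 12. The median log2 ratio of the 5 that reached 10 reads was -2.18. COL1A2, COL3A1 and DCN reached 10 reads only in the vector control, so that filter fixed their direction and this median. COL1A1 and PDGFRB, with 10 or more reads in both libraries, had log2 ratios of -0.23 and -0.24. The 6 endothelial markers summed to 4.57 CPM in PRMT5 overexpression and 6.03 CPM in the vector control. VWF made up most of both sums, at 3.50 CPM in PRMT5 overexpression and 4.70 CPM in the vector control. ERG had 19 reads in PRMT5 overexpression and 17 in the vector control, and CDH5 and KDR were at 0 in both. The part of these other cell types in the results was not tested. In bulk RNA, fewer cells that express a gene and less RNA per cell cannot be told apart.

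The stretches of genome that lie before the annotated starts are shown for the antagonist genes and for IL1B, which had the lowest ratios, and for IL1A, the most abundant ligand, so that their control regions can be compared. The sequences are from the RefSeq promoter table (GRCh38.p14), which matched 9 of the 10 genes and listed 18 starts for them; IL18 had no match. Each is written 5′ to 3′ on the gene's strand and keeps only bases outside every GENCODE 29 exon. The printed stretch ends 98 bases before the start for IL1A, 125 for IL1B and 1 for IL36RN. For IL1RN it ends 79 bases before the upstream start and 38 before the downstream one. The bases nearest the start are therefore missing for all but IL36RN, which limits the comparison. Further listed starts of IL1A, IL36RN and IL1RN are not printed. Capitals mark the AP-1 motif TGANTCA, the NF-kB consensus motif or the TATA box TATAAA, searched on both strands. They cover chr2:112784591-112784743 (minus strand) for IL1A, chr2:112836904-112837029 (minus strand) for IL1B, chr2:113058388-113058637 (plus strand) for IL36RN, and chr2:113117721-113117892 and chr2:113127348-113127560 (plus strand) for an upstream and a downstream start of IL1RN.
IL1A: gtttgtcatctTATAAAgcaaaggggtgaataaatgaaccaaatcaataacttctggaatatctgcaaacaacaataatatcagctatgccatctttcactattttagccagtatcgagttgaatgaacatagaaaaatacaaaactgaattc
IL1B: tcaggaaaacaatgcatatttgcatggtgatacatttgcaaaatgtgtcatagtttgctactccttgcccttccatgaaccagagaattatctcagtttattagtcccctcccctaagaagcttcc
IL36RN: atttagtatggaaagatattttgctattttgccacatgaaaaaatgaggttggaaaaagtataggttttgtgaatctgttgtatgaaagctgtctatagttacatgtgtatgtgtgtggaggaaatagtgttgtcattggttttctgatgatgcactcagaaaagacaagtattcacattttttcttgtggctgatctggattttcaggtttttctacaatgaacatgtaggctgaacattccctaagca
IL1RN upstream start: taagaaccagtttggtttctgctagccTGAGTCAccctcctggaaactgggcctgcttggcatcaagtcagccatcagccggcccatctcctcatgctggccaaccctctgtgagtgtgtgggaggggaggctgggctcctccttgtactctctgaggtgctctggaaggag
IL1RN downstream start: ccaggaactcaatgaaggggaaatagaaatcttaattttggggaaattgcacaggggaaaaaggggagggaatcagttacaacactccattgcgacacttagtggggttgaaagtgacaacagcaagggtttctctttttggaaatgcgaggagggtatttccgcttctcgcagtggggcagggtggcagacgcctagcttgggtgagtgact

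In the full 250 bases before each of the 18 starts, the AP-1 motif was found at 3 starts, the NF-kB motif at 1 and the TATA box at 4. Of 35116 windows of the same length in the whole table, 6.57% held the AP-1 motif, 9.96% the NF-kB motif and 10.7% the TATA box. The NF-kB match lay before a start of IL1R2. IL1A had an AP-1 match before both of its listed starts, outside the printed stretch, and a TATA box before the upstream one. The windows of these IL1A starts overlap, and the same AP-1 site was counted at both, so the 3 starts are not separate finds. The upstream start of IL1RN had 1 AP-1 match and the downstream one a TATA box outside the printed stretch. The windows of IL1B and IL36RN held none of the 3 motifs, which says only that these letters are not in those bases. The gene-level counts do not show which start was used.

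All 9 genes with reads had a lower scaled level in PRMT5 overexpression than in the vector control, by amounts that ran from almost nothing to more than 2-fold. Their median log2 ratio (PRMT5 overexpression over vector control) was -0.28, beside 0.00 over the 17777 genes that reached 10 reads in either library (the floor). Of the 9 genes, 3 were lower by 1.5-fold or more and 0 were higher. They were the antagonist IL1RN, the ligand IL1B and, at the threshold, the antagonist IL36RN. Among all those genes, 5.33% were lower by 1.5-fold or more and 7.06% were higher, and 49.6% had a ratio below 0. At 2-fold, 2 of the 9 were lower, beside 1.94% of all genes. The 95% counting interval lay wholly below 0 for 4 of the 9 genes (IL1A, IL1B, IL1RN and IL36RN), beside 14.3% of all genes, and above 0 for 0 of them, beside 14.3% too. All 9 had at least 10 reads in both libraries, and IL33 had no reads and was the only gene under the floor.

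**Figure D1:**
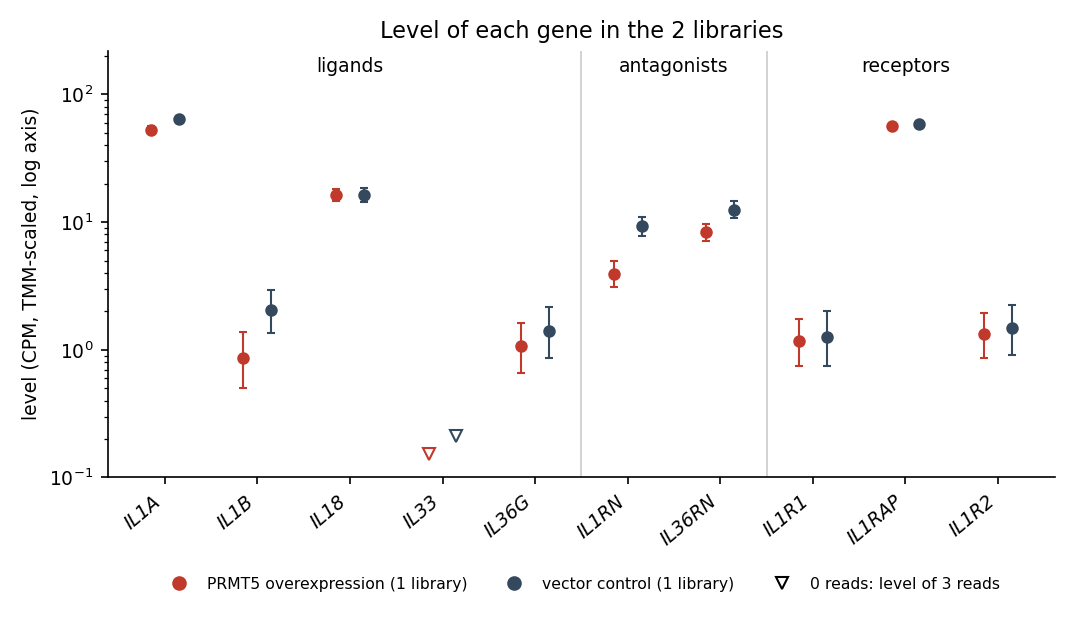
Level of each gene in CPM on a log axis in the PRMT5 overexpression library (red) and the vector control library (dark), 1 library each; bars are exact 95% Poisson intervals and triangles mark the level of 3 reads for a gene with 0 reads. IL1RN stood at 3.96 CPM, below the 9.26 CPM of the vector control, with bars that do not overlap, while the receptor chains sat side by side.

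Among the ligands, IL1A, the alarmin that keratinocytes hold ready in an active form, was the most abundant. IL1A (ENSG00000115008) had 1042 reads and 52.9 CPM in PRMT5 overexpression, against 913 reads and 64.0 CPM in the vector control. The level was therefore lower in PRMT5 overexpression, with counting intervals of 49.7 to 56.2 CPM there and 59.9 to 68.3 CPM in the vector control that do not overlap. The log2 ratio of IL1A was -0.28 (interval -0.41 to -0.15), so the difference was larger than counting error and smaller than 1.5-fold. Of the 6163 genes with a mean of 200 to 999 reads, 9.09% had a lower ratio, and 2.21% were lower by 1.5-fold or more.

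IL1B (ENSG00000125538), the secreted ligand that needs cleavage by caspase-1, was present at a low level. It had 17 reads in PRMT5 overexpression and 29 in the vector control, which are 0.862 CPM and 2.03 CPM. The log2 ratio was -1.18, with a wide interval of -2.19 to -0.33, so the size of the difference is known only roughly. Of 3793 genes with a mean of 10 to 49 reads, 2.24% had a lower ratio and 13.3% were lower by 1.5-fold or more.

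IL18, which epithelia make constitutively and which also needs caspase-1, was almost level between the libraries. Its 321 reads in PRMT5 overexpression and 234 in the vector control gave 16.3 CPM and 16.4 CPM. The log2 ratio was -0.01 (interval -0.26 to 0.24), and as a fold the interval runs from 0.836 to 1.18. IL36G, a ligand that squamous epithelia release in inflammation, had 21 reads in PRMT5 overexpression and 20 in the vector control, at 1.07 CPM and 1.40 CPM. At this depth its interval, -1.35 to 0.56 around a log2 ratio of -0.38, reached past 1.5-fold on the lower side, so a difference of that size was not detectable. IL33, the nuclear alarmin that binds the receptor encoded by IL1RL1, had 0 reads in both libraries, which allows up to 0.152 CPM in PRMT5 overexpression and 0.210 CPM in the vector control.

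Both antagonists were lower in the PRMT5 overexpression library. IL1RN (ENSG00000136689) had 78 reads and 3.96 CPM there, against 132 reads and 9.26 CPM in the vector control, so it had fewer reads in the deeper library. The log2 ratio was -1.21 (interval -1.65 to -0.81), and IL1RN was 2.32-fold lower. Among the 3001 genes with a mean of 50 to 199 reads, 0.866% had a lower ratio than IL1RN, and 4.6% were lower by 1.5-fold or more.

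IL36RN (ENSG00000136695), the antagonist of the IL-36 receptor, had 164 reads and 8.32 CPM in PRMT5 overexpression, against 179 reads and 12.6 CPM in the vector control. It was 1.51-fold lower, just past the threshold, with a log2 ratio of -0.59 (interval -0.91 to -0.28). Of the genes with a like number of reads, 4.53% had a lower ratio. IL36RN came under the threshold with a prior count of 5, at -0.58, and with deposited FPKM and a pseudocount of 1, at -0.46, a scale on which IL1B, at -0.26, did so too.

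**Figure D2:**
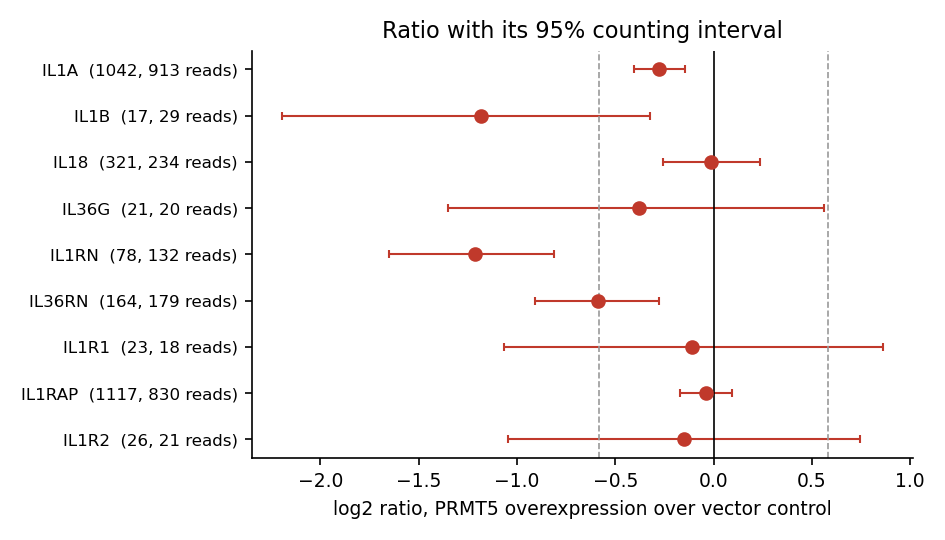
Log2 ratio of PRMT5 overexpression over vector control for the 9 genes with reads, with exact 95% counting intervals; reads of the PRMT5 overexpression library come first in each label and dashed lines mark 1.5-fold. IL1RN and IL36RN at -1.21 and -0.59 and IL1B at -1.18 lie at or left of the lower dashed line.

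The receptor chains differed by less than their counting error, and the intervals of all 3 include 0. IL1RAP, the co-receptor shared by the receptors of IL-1, IL-33 and IL-36, was the most abundant chain, with 1117 reads in PRMT5 overexpression and 830 in the vector control. These are 56.7 CPM and 58.2 CPM, with a log2 ratio of -0.04 (interval -0.17 to 0.09). The interval of IL1RAP lies inside 1.5-fold on both sides. In the transcripts of other genes, 9.31% of its 50-base stretches recur, beside 0% for each of the other 9 genes, so a small part of its reads may belong elsewhere.

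IL1R1, the signalling receptor, and IL1R2, the decoy, were both at a low level. IL1R1 had 23 reads in PRMT5 overexpression and 18 in the vector control, at 1.17 CPM and 1.26 CPM. IL1R2 had 26 reads in PRMT5 overexpression and 21 in the vector control, at 1.32 CPM and 1.47 CPM. Their log2 ratios were -0.11 and -0.15, with intervals of -1.07 to 0.86 and -1.05 to 0.74, so differences of 1.5-fold in either direction were not detectable.

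**Figure D3:**
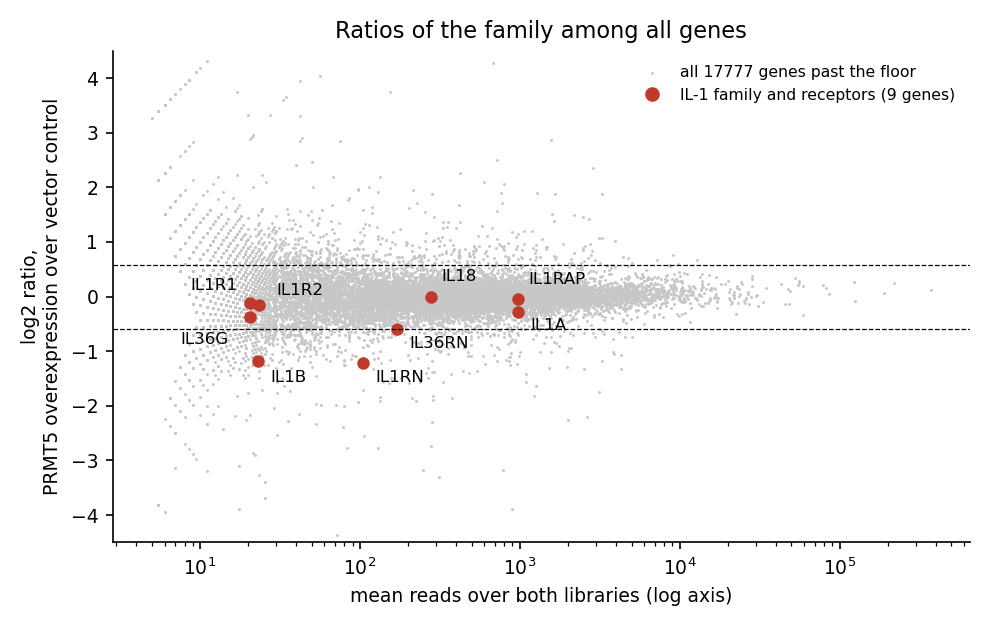
Log2 ratio of PRMT5 overexpression over vector control against mean reads (log axis) for 17777 genes (grey; 18 lie beyond the plotted range) and the 9 genes with reads (red); dashed lines mark 1.5-fold. The grey cloud widens toward few reads, and IL1RN at -1.21 lies below most genes of its depth while IL18 and IL1RAP lie in the centre.

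Ratios of reads between 2 genes of the same library do not depend on how the libraries were scaled. There were 13.4 IL1A reads for each IL1RN read in PRMT5 overexpression, against 6.92 in the vector control. The ratio of IL1RN to IL1A thus differed by -0.95 on the log2 scale, with an exact conditional interval of -1.39 to -0.51. For each IL1RN read there were 14.3 reads of IL1RAP in PRMT5 overexpression and 6.29 in the vector control, and the log2 difference of IL1RN to IL1RAP was -1.19 (interval -1.63 to -0.75). IL1RN was also lower relative to IL36RN, by a log2 difference of -0.63 (interval -1.16 to -0.11).

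Relative to the co-receptor, IL36RN differed by a log2 value of -0.55 (interval -0.90 to -0.21) and IL1A by -0.24 (interval -0.42 to -0.05). IL1RN and IL1B stood in nearly the same proportion, with 4.59 IL1RN reads per IL1B read in PRMT5 overexpression and 4.55 in the vector control, but the interval of that difference, -1.0 to 1.06, is wide. The proportion of IL36RN to its ligand IL36G was 7.81 in PRMT5 overexpression and 8.95 in the vector control, with a log2 difference of -0.20 (interval -1.21 to 0.82). The intervals of 8 of the 12 pairs computed leave out 0. They cover counting error only, and the pairs share genes.

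Levels were compared between genes per kilobase of merged exons (GENCODE 29). In the PRMT5 overexpression library the order was IL1A at 24.9 CPM per kb, IL18 at 6.20, IL1RAP at 4.90, IL36RN at 2.52, IL1RN at 1.22, IL36G at 0.772, IL1R2 at 0.429, IL1B at 0.279 and IL1R1 at 0.165. Counting intervals of neighbours overlapped from IL1RN to IL36G and on through IL1R2, IL1B and IL1R1. In the vector control library the levels were 30.1 CPM per kb for IL1A, 6.24 for IL18, 5.04 for IL1RAP, 3.80 for IL36RN, 2.84 for IL1RN, 1.02 for IL36G, 0.657 for IL1B, 0.479 for IL1R2 and 0.178 for IL1R1. The order in the vector control was the same but for IL1B and IL1R2, whose intervals overlap, and there the intervals of IL36RN and IL1RN overlap too, at 3.27 to 4.41 and 2.38 to 3.37 CPM per kb. Further down, the intervals of IL36G and IL1B overlap in the vector control. In PRMT5 overexpression the intervals of those antagonists are apart, at 2.15 to 2.94 for IL36RN and 0.961 to 1.52 for IL1RN.

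On chromosome 2 lie 7 of the 10 genes (GRCh38), in a ligand cluster and a receptor cluster, while IL18 lies on chromosome 11, IL1RAP on 3 and IL33 on 9. In the ligand cluster, IL1A spans 112773915 to 112784590 and IL1B 112829751 to 112836903 on the minus strand, and IL36G starts at 112973203, IL36RN at 113058638 and IL1RN at 113107214 on the plus strand. In the receptor cluster, IL1R2 spans 101991844 to 102028544 and IL1R1 102064544 to 102179874 on the plus strand. None of the 10 genes shares exon bases in GENCODE 29 with another gene past the floor. CKAP2L, a mitotic spindle gene next to IL1A, had 1108 reads in PRMT5 overexpression and 1164 in the vector control and a log2 ratio of -0.54 (interval -0.66 to -0.42). PSD4, the gene beyond IL1RN, had 247 reads in PRMT5 overexpression and 182 in the vector control and a log2 ratio of -0.03 (interval -0.31 to 0.26). These neighbours were picked for their position.

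**Figure D4:**
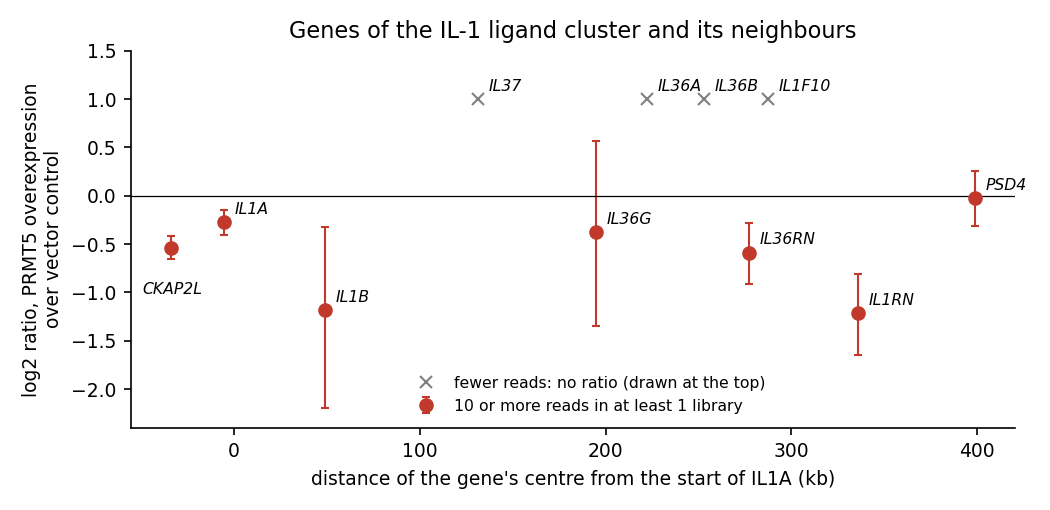
Log2 ratio of PRMT5 overexpression over vector control, with 95% counting intervals, for protein-coding genes of the ligand cluster and both flanking genes, by distance from the start of IL1A in kb. Crosses, drawn at the top, mark genes with too few reads for a ratio. The ratios of the family genes run from -0.28 for IL1A to -1.21 for IL1RN. Of the flanking genes, CKAP2L lies at -0.54 and PSD4 at -0.03.

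The other ligands of the family were close to absent. IL36A had 0 reads in both libraries, IL36B had 0 reads in PRMT5 overexpression and 4 in the vector control, IL37 had 1 and 0, and IL1F10, also known as IL-38, had 6 and 0. Of the other receptors, IL1RL2, the receptor of IL-36 cytokines, had 29 reads in PRMT5 overexpression and 31 in the vector control, with a log2 ratio of -0.55 (interval -1.35 to 0.22). IL18R1, the ligand-binding chain of the IL-18 receptor, had 9 reads in PRMT5 overexpression and 17 in the vector control. It was the single gene of this list past 1.5-fold, at -1.28 (interval -2.73 to -0.14). It reached the floor only in the vector control, where it was higher, so its call rests on that filter. Its partner IL18RAP had 2 reads in PRMT5 overexpression and 0 in the vector control, and IL1RL1, IL1RAPL1 and IL1RAPL2 had none in either library.

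SIGIRR, a receptor-like inhibitor of IL-1 signalling, was at 15.3 CPM in PRMT5 overexpression and 14.1 CPM in the vector control, with a log2 ratio of 0.11 (interval -0.15 to 0.38). IL18BP, the secreted inhibitor of IL-18, was at 76.6 CPM in PRMT5 overexpression and 64.6 CPM in the vector control, with a log2 ratio of 0.25 (interval 0.13 to 0.37). IL18BP shares exon bases with NUMA1 and its log2 ratio was -0.01 once both were summed, so its reads are uncertain. IL18 relative to IL18BP differed by -0.26 on the log2 scale (interval -0.53 to 0.02). Of the 12 genes of this list, 4 were past the floor, 1 was lower and 0 were higher by 1.5-fold or more, with a median log2 ratio of -0.22, where 5.33% of all genes were lower and 7.06% higher. That median turned to 0.18 without a floor, at a floor of 50 reads and over genes averaging at least 50 reads. The lower gene was IL18R1, which passed the floor only through the vector control, so the count and the median of -0.22 rest in part on that filter. The call of IL18R1 was lost at the higher floor and with deposited FPKM.

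Transducers between the receptors and NF-kB were nearly all present, with 19 of 20 past the floor and a median log2 ratio of -0.05. Of these, 2 were lower by 1.5-fold or more and 0 higher, where 5.33% of all genes were lower and 7.06% higher. All 19 averaged at least 50 reads, and at that depth 2.42% of all genes were lower and 2.70% higher. MYD88, the adaptor that IL-1 receptors share with Toll-like receptors, was at 12.0 CPM in PRMT5 overexpression and 21.3 CPM in the vector control. The log2 ratio of MYD88 was -0.82 (interval -1.08 to -0.58). The other gene was UBE2V1, a cofactor of the ubiquitin ligase step at TRAF6, at -0.84, but it shares exons with TMEM189-UBE2V1 and stood at -0.08 once both were summed.

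The kinases of the pathway lay on both sides of 0. IRAK1, the kinase recruited by MYD88, was at 160 CPM in PRMT5 overexpression and 112 CPM in the vector control, with a log2 ratio of 0.51 (interval 0.42 to 0.60). IRAK2, a related kinase that IL-1 itself induces, was at 8.12 CPM in PRMT5 overexpression and 10.7 CPM in the vector control, with a log2 ratio of -0.40 (interval -0.73 to -0.07). The ubiquitin ligase PELI1 stood at -0.28 (-0.29 summed with the gene that shares its exons) and the inhibitor TOLLIP at 0.22, both inside 1.5-fold.

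**Figure D5:**
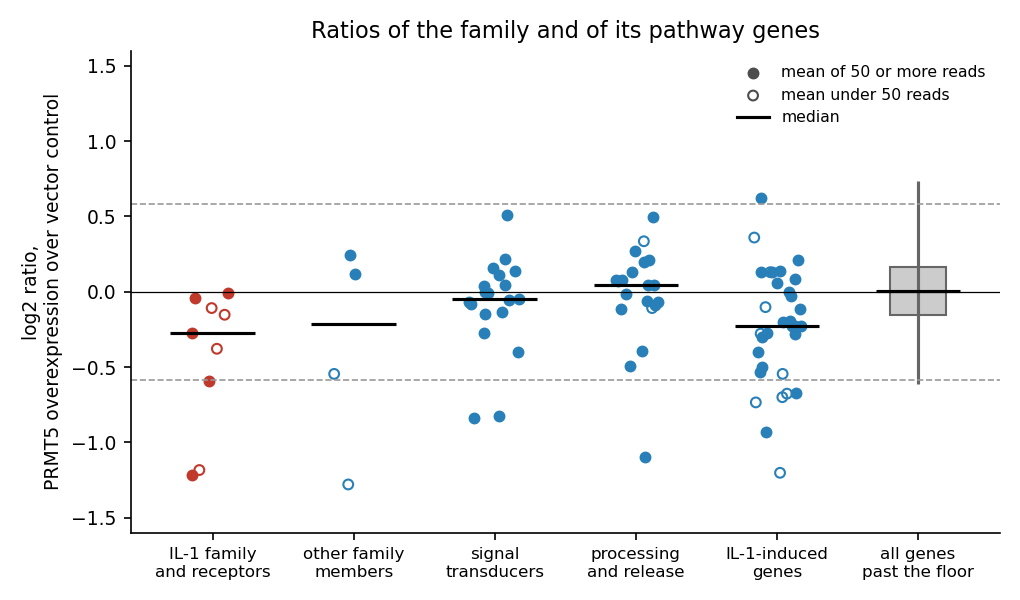
Log2 ratio of PRMT5 overexpression over vector control for each gene past the floor in the family and in 4 groups of related genes, filled where the mean is 50 or more reads; the box and whiskers give the 25th to 75th and the 5th to 95th percentile of all genes past the floor, and dashed lines mark 1.5-fold. The family had a median of -0.28, the other family members one of -0.22 and the genes induced by IL-1 one of -0.23. The medians were -0.05 for the transducers, 0.04 for processing and release, and 0.00 over all genes.

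Genes that process or release IL-1 cytokines lay around 0. Of 30 genes, 20 were past the floor, 1 was lower by 1.5-fold or more (5.33% of all genes), 0 were higher (7.06% of all genes), and the median log2 ratio was 0.04. Among the 18 that averaged at least 50 reads, 1 was lower and 0 were higher, where 2.42% of all genes at that depth were lower and 2.70% higher. The gene that passed was GSDMB, a pore-forming gasdermin, at 19.6 CPM in PRMT5 overexpression and 41.9 CPM in the vector control, with a log2 ratio of -1.10 (interval -1.29 to -0.91). CARD16, a caspase-1 inhibitor, stood at 0.50 (interval 0.08 to 0.93). CAPNS1, the small subunit of the calpains that cleave the IL1A precursor, stood at -0.49, S100A13, which takes part in IL1A export, at 0.27 (0.22 summed with the genes that share its exons) and GSDME at 0.21. ANXA2, the most abundant gene of this list, stood at 0.07.

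Genes that IL-1 induces in epithelial cells lay mostly below 0, with 23 of 32 past the floor there (71.9%), beside 49.6% of all genes. Their median log2 ratio was -0.23. By 1.5-fold or more, 6 were lower and 1 was higher, which is 18.8% and 3.12% of those past the floor, beside 5.33% and 7.06% of all genes. Among the 23 that averaged at least 50 reads, 2 were lower and 1 was higher, where 2.42% of all genes at that depth were lower and 2.70% higher. The neutrophil chemokine CXCL8 was at 19.0 CPM in PRMT5 overexpression and 36.3 CPM in the vector control, with a log2 ratio of -0.93 (interval -1.13 to -0.74). CXCL1, which acts on the same receptor, stood at -0.68 (interval -0.94 to -0.42). The others that passed on the lower side had means under 50 reads and were named after their values were seen. They were CXCL3 at -1.20 (interval -1.86 to -0.61) and PTGS2 at -0.70 (interval -1.39 to -0.05). SAA2 at -0.73 (interval -2.02 to 0.41) and IL6 at -0.68 (interval -1.77 to 0.32) passed too, but their intervals include 0.

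The gene of that list on the higher side was S100A8, a calprotectin subunit, with 71 reads in PRMT5 overexpression and 33 in the vector control and a log2 ratio of 0.63 (interval 0.02 to 1.28). S100A8 came under the threshold with a prior count of 5 and with deposited FPKM. Its partner S100A9 stood on the other side, at -0.50 (interval -0.77 to -0.23). BIRC3, an NF-kB target that curbs cell death, stood at -0.53 and IER3, the most abundant gene of the list, at -0.12 (-0.10 summed with IER3-AS1). IL-1 is one of several inducers of these genes, and the lists overlap in IRAK2.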

How the data were processed

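Polyadenylated RNA of Tu212 cells was sequenced, with 1 library for PRMT5 overexpression and 1 for the vector control, grouped by genotype in the labels. Per the submitters' processing notes, the tools were StringTie 1.3.4b, HISAT2 2.1.0, CASAVA 1.8 and edgeR and the builds GRCh38 and hg38, with no role stated; the sources used here do not give strandedness. The deposited table holds a raw count and an FPKM value for each of 58302 genes in each library. Counts were used as deposited, with rows of 1 symbol summed, and 0 per-sample columns were left unused. TMM factors (edgeR 4.0.16, R 4.3.3) were 0.990 for PRMT5 overexpression and 1.01 for the vector control. Log2 ratios are differences of log2 CPM with a prior count of 1, for genes that reach 10 reads in either library, and 1.5-fold is the threshold.

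With 1 library per group no p-value is given. Ratios carry exact 95% Clopper-Pearson intervals scaled by library size, levels exact Poisson intervals, pairs of genes exact conditional odds ratio intervals (scipy 1.17.1), and a count of 0 allows 3 reads. Reads are not independent molecules, so these cover counting error only. The genes and lists were chosen with earlier results of these data known. From each pathway list, up to 6 genes with the largest ratios at a mean of 50 or more reads and the most abundant gene were named, as were all other family members; 1 item is not reported here. With 2 libraries a pattern is a single ratio, so no genes of like pattern are named. The NF-kB consensus replaced a looser form after seeing how many promoters held that. The computation was tested on simulated data. Alternatives were other prior counts, DESeq2 1.42.0 size factors, total count scaling, other floors, 2-fold, the highest row per symbol, FPKM, sums with exon-sharing genes and protein-coding genes only; a mean of 50 or more reads was added after seeing the data.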

Additional observations from a re-analysis of the deposited data

How the results depend on the processing

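Of 63 recalculated ratios of the 9 genes with reads, 61 stayed within their counting intervals and all 63 were below 0. The exceptions came from deposited FPKM with a pseudocount of 1, where IL1B was at -0.26 and IL1RN at -0.64, because the pseudocount shrinks low values by construction; there, 1 gene was lower by 1.5-fold or more and the median was -0.15. IL36RN, at the threshold, was at -0.58 with a prior count of 5 and at -0.46 with FPKM, and so no longer past it. At 2-fold, 2 genes of the 9, IL1B and IL1RN, were lower, beside 1.94% of all genes lower and 2.90% higher. No gene shares exons with a counted gene or stands on more than 1 row, so those settings could not change a value. The other family members had 0 lower with FPKM, at a floor of 50 reads and at a mean of 50 or more reads, 2 lower and 3 higher with no floor, and medians of -0.040 with FPKM and 0.18 under each of the other floors. The transducers had 1 lower with FPKM, 0 lower at 2-fold and 1 higher with no floor, and the processing list 2 lower and 2 higher with no floor. The induced genes had 2 lower with FPKM, 3 at a floor of 50 reads, 1 at 2-fold and 2 at a mean of 50 or more reads, and 0 higher with a prior count of 5, FPKM or 2-fold and 3 with no floor. Over all genes, 1.25% were lower and 1.83% higher with FPKM, 15.3% and 17.3% without a floor, 2.55% and 3.24% where the floor was 50 reads, 2.42% and 2.70% at a mean of 50 or more reads, and 4.24% were higher among protein-coding genes. Floors and thresholds change these by the genes they admit. Depth limits IL1B, IL36G, IL1R1 and IL1R2, all under 30 reads per library. No paired analysis was possible because both groups are single libraries.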

Other observations

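The deposited FPKM values of these genes rest on a length that counts shared exon bases more than once. For all 9 genes with reads, the length implied by the FPKM equalled the summed length of all distinct exons in GENCODE 29, each alternative form of an exon counted anew, and over 11471 genes with more than 100 reads in both libraries the implied length was within 1% of that sum in 92.2%. The implied length of IL1A, which has 1 annotated transcript, was 2124 bases, the same as its merged exons. For IL1RAP, with 19 transcripts, it was 23113 bases where merged exons span 11558, and for IL18, with 6, it was 5153 where they span 2628. By deposited FPKM, IL1A stood at 24.6 and IL1RAP at 2.43 in PRMT5 overexpression, a wider gap than the 24.9 and 4.90 CPM per kb of merged exons. In the vector control, FPKM placed IL36RN at 3.45 above IL18 at 3.22, where merged exons give 3.80 and 6.24 CPM per kb. The plain ratio of a gene between libraries does not depend on this length. The FPKM ratios given above do, because a longer length lowers the FPKM to which the pseudocount is added.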
